A study of Homo sapiens with 23 samples.

Results

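The comparison described here is that of doxycycline with no doxycycline in clone H6 of PC-3 cells in experiment B. It holds 5 libraries, 3 from wells with doxycycline and 2 from wells without it, of 23 libraries in the whole series. They were chosen by the clone, the experiment and the treatment in the labels, and not by any measured value. PC-3 is an established human prostate cancer cell line. Both groups carried a lentiviral pLVX TetOne-Puro construct for inducible expression of the PARG cDNA, fused to the green fluorescent protein mClover3 by a linker that can be cleaved. H6 is a single clone, so its wells are repeat cultures of 1 clone. The treated wells received 500 ng/ml doxycycline and the untreated wells 0 ng/ml, and RNA was taken after 72 h at passage 7. Poly(A) RNA was turned into libraries that record the strand. The labels' protocol speaks of 3 untreated wells, and 2 untreated libraries were analysed here. No cells lacking the construct are part of the data used, and what doxycycline does by itself and what induced PARG does cannot be told apart. The other comparisons, set beside this one where it differs, are clone H6 in experiment N (passage 5, libraries of both strands), called H6-N below, and clone I4 in experiments B (passage 7) and N (passage 5), called I4-B and I4-N. Each has 3 treated and 3 untreated wells at the same dose and time.

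PARG encodes poly(ADP-ribose) glycohydrolase, which removes the chains of ADP-ribose that PARP enzymes build on proteins at DNA breaks, at promoters and elsewhere. PARP1, the most abundant of these enzymes, is also known as a coactivator of NF-kB, the family of transcription factors that switches on chemokine, cytokine and survival genes. Tumour cells that keep NF-kB active without an outside stimulus secrete chemokines of the CXCL group, interleukin-1, interleukin-6 and colony-stimulating factors, and PC-3 is known as a line of this kind.

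The authors' deposited table was the only file of values. It gives, for each gene, the higher of both group means (called the level here), a signed fold change and a q-value, and no value per well. The spread between the wells and any overlap between the groups are therefore not known, no SD can be given, and the q-value covers at most the differences between wells of 1 clone. The level lies on the scale of RPKM, reads per kilobase of exon corrected for library depth, as far as the values show. The lower group mean was calculated here as the level divided by the fold. Among genes of very low level, the worth of 1 read took 3 values in genes with a positive fold and 2 in genes with a negative fold, as many as there are treated and untreated wells. Untreated wells of H6-N and I4-N and treated wells of I4-B, 3 in each group, gave 2 values, so 2 values alone do not show 2 wells. The 3 values need at least 3 wells, and positive folds are therefore written as higher with doxycycline. In this comparison the values put the treated wells at 26.5, 23.2 and 22.3 M reads and the untreated wells at 24.7 and 19.2 M reads. In H6-N the same reading gave 33.7 to 43.2 M reads. In bulk RNA of this kind, fewer cells that express a gene and less RNA per cell cannot be told apart.

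Of 10 prostate epithelial markers 3 reached a level of 1, EPCAM and the simple epithelial keratins KRT18 and KRT8, and 4 were listed at 0. In the authors' deposited table KRT18 stood at a level of 127, KRT8 at 39.3 and EPCAM at 5.13. KLK3, KLK2, KRT5 and KRT14 were listed at 0, and ACPP, MSMB and TP63 stayed below 1. Their sums were 172 with doxycycline and 133 without. The marker lists do not hold KRT81, VIM and FN1, given below, whose levels were above that of KRT8. Of 12 fibroblast markers 1, COL1A1, reached a level of 1, and THY1 was listed at 0. The levels of that list summed to 13.6 with doxycycline and 15 without. Of 14 blood cell markers 1, CD68, reached a level of 1, and 8 were listed at 0, CD3E and HBB among them. Their sums were 27.7 and 27.4. Of 9 endothelial markers 4 reached a level of 1 and none was listed at 0, with sums of 4.26 and 6.87. Among them ROBO4 was 2.22-fold lower (q listed as 0) and PECAM1 1.56-fold lower (q = 0.0012) in the authors' deposited table, while CDH5 (level 0.00666) and VWF (0.0113) were near 0. Of 10 neuroendocrine markers 1, ENO2, reached a level of 1, and 4 were listed at 0, CHGA, CHGB and NEUROD1 among them. Their sums were 42.5 and 35.1, and ENO2, a glycolytic enzyme gene, was 1.21-fold higher (q = 0.0119) in the authors' deposited table.

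Of 10705 genes with a level of at least 1, 1123 had a q-value under 0.05 in the authors' deposited table and are called changed here, which is 10.5% of the genes. Of these, 538 were higher with doxycycline (5.03%) and 585 lower (5.46%). The falls reached further than the rises: 142 genes fell and 85 rose by at least 1.5-fold, 43 fell (0.402%) and 10 rose (0.0934%) by at least 2-fold, and 13 fell and 2 rose by at least 3-fold. Since the level is the higher group mean, a gene could reach the minimum through that group alone. Among rises of at least 2-fold MMP13, ZNF608, HPGD, OASL and FAM131B did so, and CSF3 and SCG5 among the falls. The median fold was 1.29 among genes called higher and 1.32 among genes called lower. The median log2 fold of all 10705 genes was 0.0084. Apart from 1 read-through gene with few reads, the largest changes were falls of secreted inflammatory factors.

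**Figure D1:**
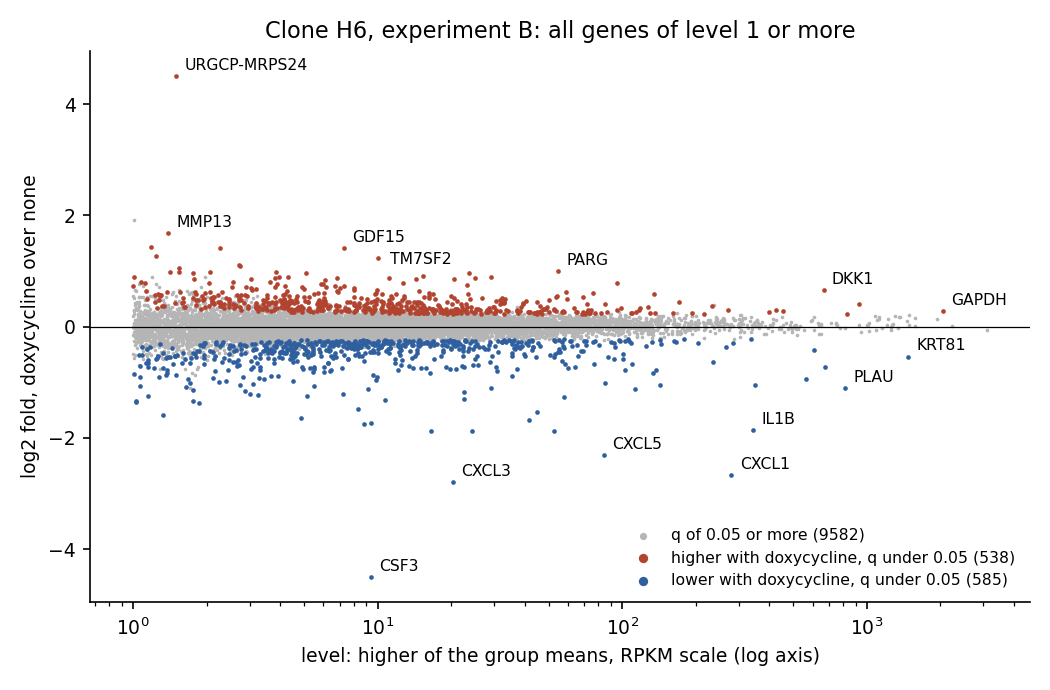
Log2 fold with doxycycline (vertical axis) against the level, which is the mean of the group with the higher mean, in RPKM (horizontal log axis), for the 10705 genes of level 1 or more; each point is a gene, coloured by direction where q was under 0.05. CSF3, CXCL3 and CXCL1 lie farthest below 0, and the called rises, other than URGCP-MRPS24, end at the 3.21-fold rise of MMP13.

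PARG itself stood at 27.4 without and 54.6 with doxycycline on the RPKM scale in the authors' deposited table, 1.99-fold higher (q listed as 0). That corresponds to about 3080 and 6720 reads per well. On GRCh38 the gene spans chr10:49818279-49970203 on the minus strand. Reads of the introduced cDNA and of the chromosomal gene are counted together, and the overlapping gene TIMM23B and the copy PARGP1 can share part of them. The authors' deposited table has PARG 2.15-fold higher in H6-N and 1.4-fold higher in I4-B. Among 24 measured genes of ADP-ribosylation, 2 were called higher and none lower, against 5.03% and 5.46% of all genes. The other member called was PARP11, a mono-ADP-ribosyltransferase, which rose from 0.807 to 1.14 (1.42-fold, q = 0.0378) in the authors' deposited table. PARP1, which builds most of the chains that PARG removes, was 1.16-fold lower (q = 0.0755) at a level of 217 in that table and did not pass the threshold. PARP2, its closest relative, was 1.07-fold lower (q = 0.831) and TIPARP 1.09-fold higher (q = 0.601) in the authors' deposited table. None of 14 NAD metabolism genes was called, among them NAMPT, which makes the precursor of NAD and was 1.08-fold lower (q = 0.724) in the authors' deposited table.

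The chemokines of the CXCL group carry the strongest pattern of the comparison, so the proximal promoters of 6 measured members, and that of IL6, are shown first. They come from the RefSeq promoter table (GRCh38.p14) and run 5′ to 3′ on the strand of the gene, from 110 to 31 bases before its RefSeq start. Capitals mark each match on either strand to GGNNTTTCC, a form of the kappa-B site that NF-kB dimers are known to bind. CXCL1 is chr4:73869283-73869362 (plus strand), CXCL2 chr4:74099226-74099305 (minus), CXCL3 chr4:74038720-74038799 (minus), CXCL5 chr4:73998708-73998787 (minus), CXCL6 chr4:73836568-73836647 (plus), CXCL8 chr4:73740459-73740538 (plus) and IL6 chr7:22727090-22727169 (plus).
CXCL1: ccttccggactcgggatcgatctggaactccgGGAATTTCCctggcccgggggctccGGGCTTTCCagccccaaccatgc
CXCL2: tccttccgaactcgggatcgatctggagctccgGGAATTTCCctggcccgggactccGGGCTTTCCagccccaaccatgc
CXCL3: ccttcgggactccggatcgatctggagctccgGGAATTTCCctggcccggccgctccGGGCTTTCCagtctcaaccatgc
CXCL5: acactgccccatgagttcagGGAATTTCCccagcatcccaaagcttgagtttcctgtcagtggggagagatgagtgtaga
CXCL6: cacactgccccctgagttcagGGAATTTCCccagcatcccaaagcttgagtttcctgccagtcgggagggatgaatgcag
CXCL8: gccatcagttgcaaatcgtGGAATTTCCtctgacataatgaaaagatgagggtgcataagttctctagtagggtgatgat
IL6: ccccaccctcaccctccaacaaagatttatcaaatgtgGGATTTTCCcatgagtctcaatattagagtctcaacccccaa
The matches of CXCL1 and CXCL3 begin at -78 and -53 from the start and those of CXCL2 at -77 and -53, while CXCL5, CXCL6, CXCL8 and IL6 have 1 match each, at -90, -89, -91 and -72. Over the whole windows of the table, which extend past these stretches on both sides, 6.26% of all 27305 promoters and 6.82% of the 8605 promoters of genes measured here hold the motif. These promoters were picked for showing from genes already known to fall, and a match describes the letters only. A promoter was matched for 76.9% of the genes called lower, fewer than 80%, so a share over that set is void and is not given.

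All 6 of these chemokines, which attract neutrophils through CXCR2, fell. In the authors' deposited table CXCL1 fell from 279.9 to 44 (6.35-fold, q listed as 0) on the RPKM scale and remained the most abundant of the 6 in both groups. The same table shows that CXCL5 fell from 84.3 to 16.9 (4.97-fold, q listed as 0) and that CXCL6 fell from 52.6 to 14.3 (3.68-fold, q listed as 0). CXCL8, which encodes interleukin-8, fell from 41.5 to 13 (3.19-fold, q listed as 0), CXCL3 fell from 20.4 to 2.95 (6.91-fold, q listed as 0) and CXCL2 fell from 8.78 to 2.62 (3.35-fold, q listed as 0) in the authors' deposited table. They rest on many reads: about 7960 per untreated and 1370 per treated well for CXCL1, and 289 and 94.2 for CXCL2, the least abundant. The authors' deposited table lists falls in I4-B from 7.79-fold for CXCL6 to 13.3-fold for CXCL3. No difference between clones was tested, since no value per well was analysed here.

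These genes lie in a row on chromosome 4. From CXCL8 to EPGN (73740506 to 74315307, 574.8 kb) 7 consecutive genes of level 1 or more were called lower: CXCL8, CXCL6, CXCL1, CXCL5, CXCL3, CXCL2 and EPGN. EPGN, a ligand of the EGF receptor, fell from 4.53 to 2.93 (1.54-fold, q = 0.00615) in the authors' deposited table. The next measured gene, AREG, encodes another ligand of that receptor and rose from 4.38 to 6.86 (1.56-fold, q = 0.00163) in the authors' deposited table. Next to them MTHFD2L, at a level of 0.93, was 1.18-fold lower (q = 0.747) and EREG, at 0.248, 1.15-fold higher (q = 1.00) in the authors' deposited table. The chemokine genes PF4 (level 0.671, q = 0.905) and PPBP (level 0.473, q = 0.134) in the middle of the row also stayed below 1 and were not called in the authors' deposited table.

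Other secreted cytokines fell with them. CSF3, which encodes granulocyte colony-stimulating factor, had the largest fall of the comparison: it fell from 9.36 to 0.412 (22.7-fold, q listed as 0) in the authors' deposited table. The treated mean rests on about 22 reads per well, against 456 per untreated well, so the size of this fold is imprecise. IL1B, the precursor of interleukin-1 beta, was the most abundant transcript among the measured cytokines and fell from 342 to 94.1 (3.64-fold, q listed as 0) in the authors' deposited table. CSF2, the granulocyte-macrophage factor, fell from 9.45 to 2.85 (3.32-fold, q listed as 0), LIF fell from 44.9 to 15.5 (2.89-fold, q listed as 0) and IL6 fell from 8.3 to 2.99 (2.78-fold, q listed as 0) in the authors' deposited table. IL23A, a subunit of interleukin-23, fell from 5.16 to 2.17 (2.37-fold, q = 2.39e-08) in the same table. Of 18 measured chemokines and cytokines 12 were called lower and 3 higher, 66.7% and 16.7%, where 5.46% and 5.03% of all genes were. The median log2 fold of the 18 was -1.60, beside 0.0084 for all genes.

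The 3 members that rose did so by smaller factors. IL18, a cytokine of the interleukin-1 family, rose from 29.5 to 39.4 (1.34-fold, q = 7.53e-05) in the authors' deposited table. CXCL16, a membrane-bound chemokine, rose from 1.34 to 2.06 (1.54-fold, q = 0.0109), and IL32, another cytokine, rose from 11.9 to 14.5 (1.21-fold, q = 0.0382) in the authors' deposited table. In I4-B that table lists CXCL16 as 1.0-fold higher (q = 1.00) and IL32 as 2.18-fold lower (q listed as 0).

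**Figure D2:**
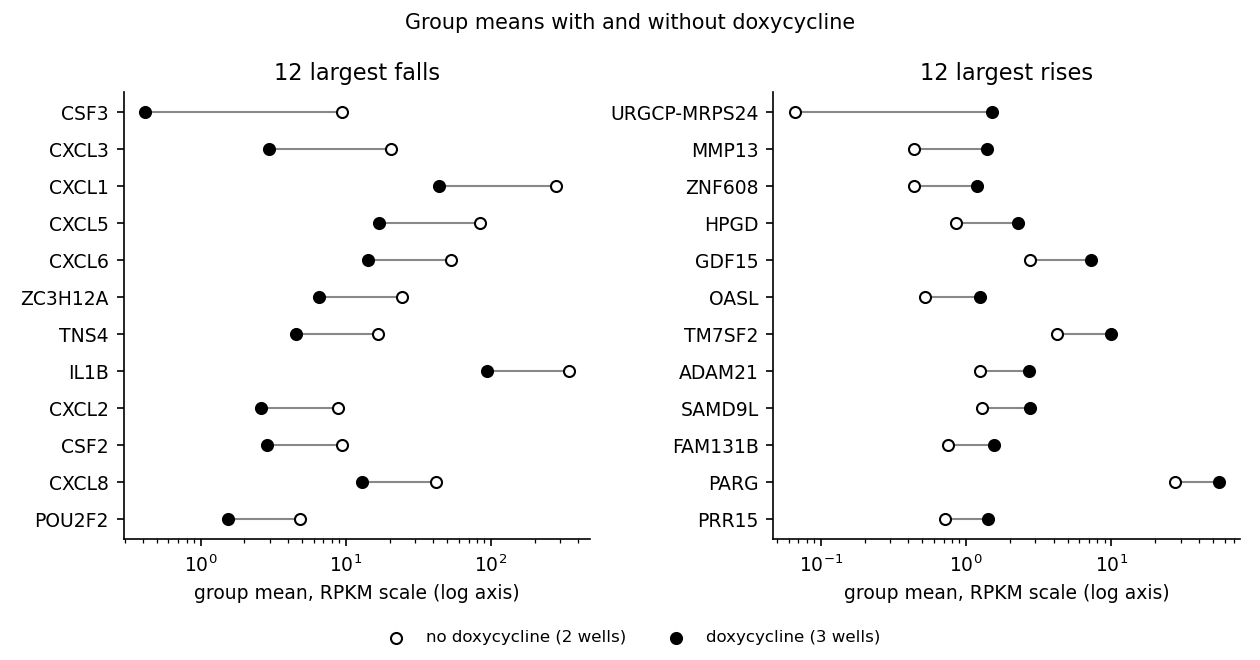
Group means on the RPKM scale (horizontal log axes) without doxycycline (open circles, 2 wells) and with it (filled circles, 3 wells) for the 12 largest falls and the 12 largest rises; no spread is drawn because the table has no value per well. CXCL1 and IL1B start at 279.9 and 342 and end below 100, while most of the genes with the largest rises stay below 10 and PARG ends at 54.6.

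The list of NF-kB subunits, inhibitors and feedback genes, which also holds PTGS2 and ICAM1, fell less evenly. Of its 24 measured members, 10 were called lower and none higher (41.7% lower, where 5.46% of all genes were), with a median log2 fold of -0.26. ZC3H12A, an RNase that degrades cytokine mRNAs, fell from 24.2 to 6.59 (3.68-fold, q listed as 0) and NFKBIZ, a nuclear cofactor of NF-kB needed for IL6 induction, fell from 10.8 to 4.34 (2.48-fold, q listed as 0) in the authors' deposited table. PTGS2, the inducible cyclooxygenase, fell from 1.07 to 0.572 (1.87-fold, q = 0.000218) in the authors' deposited table. TNFAIP3, a ubiquitin-editing enzyme that ends NF-kB signalling, fell from 6.46 to 3.79 (1.71-fold, q listed as 0) and IER3 fell from 138 to 80.9 (1.71-fold, q listed as 0) in the authors' deposited table. NFKBIA, the inhibitor that NF-kB itself transcribes, fell from 56.9 to 37.1 (1.53-fold, q = 1.91e-12) in the authors' deposited table. The subunit genes differed in call: REL was 1.28-fold lower (q = 0.0173), while NFKB1 was 1.14-fold lower (q = 0.182), NFKB2 1.09-fold lower (q = 0.684) and RELA 1.06-fold higher (q = 0.911) in the authors' deposited table. ICAM1, an adhesion molecule of the same group, was 1.12-fold lower (q = 0.268) in that table. The same list had 13 members called lower in H6-N, 22 in I4-B and 23 in I4-N, with medians of -0.30, -0.78 and -0.68 on the log2 scale. The shares of all genes called lower there were 10.6%, 9.09% and 12.5% in this order. The difference between clones was not tested.

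Immediate early genes moved in both directions. Of 21 measured, 8 were called lower and 3 higher (38.1% and 14.3%, where 5.46% and 5.03% of all genes were), with a median log2 fold of -0.10. KLF6, a zinc-finger factor, fell from 13.5 to 8.26 (1.63-fold, q listed as 0), JUN, a subunit of AP-1, fell from 25.6 to 17.7 (1.45-fold, q = 4.13e-09) and KLF10 fell from 50.9 to 35.6 (1.43-fold, q = 2.42e-09) in the authors' deposited table. MYC, the growth regulator, fell from 35.6 to 25.5 (1.4-fold, q = 1.35e-07) in the authors' deposited table. CTGF, a matricellular protein, rose from 22.1 to 30.4 (1.37-fold, q = 0.00364) in the authors' deposited table, while its relative CYR61 fell from 204 to 165 (1.23-fold, q = 0.00223). Of 18 MAP kinase feedback genes 4 phosphatases were called lower and 1 gene higher (22.2% and 5.56%). The authors' deposited table gives falls of 1.51-fold (q = 0.00562) for DUSP10, 1.45-fold (q = 5.31e-05) for DUSP1, 1.45-fold (q = 1.08e-09) for DUSP5 and 1.35-fold (q = 5.12e-07) for DUSP4. The gene that was higher, SPRY1, restrains growth factor receptors and rose from 3.4 to 6.09 (1.79-fold, q = 8.94e-14) in the authors' deposited table. Among 9 genes of the EGF receptor family and its ligands 4 were called higher and 2 lower (44.4% and 22.2%). HBEGF, a ligand, fell from 30.4 to 18.5 (1.64-fold, q listed as 0), and the receptor genes ERBB2 and ERBB3 rose 1.28-fold (q = 0.00128) and 1.28-fold (q = 0.0354) in the authors' deposited table. EGFR itself was 1.13-fold lower (q = 0.177) there.

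The gene of the urokinase plasminogen activator fell from a high level. PLAU fell from 817 to 379 (2.16-fold, q listed as 0) on the RPKM scale in the authors' deposited table. PLAUR, the receptor, fell from 29.4 to 20.5 (1.44-fold, q = 5.53e-09) in that table. Of 20 angiogenic and plasminogen factors 7 were called lower and 5 higher (35% and 25%, where 5.46% and 5.03% of all genes were), with a median log2 fold of -0.028. VEGFA, the main vascular growth factor, fell from 35.4 to 19.1 (1.85-fold, q listed as 0), its coreceptor gene NRP2 fell from 5.28 to 3.17 (1.66-fold, q listed as 0) and the vasoconstrictor gene EDN1 fell from 3.1 to 1.53 (2.03-fold, q = 2.55e-07) in the authors' deposited table. EFNB2, an ephrin of arterial vessels, rose from 6.27 to 9.92 (1.58-fold, q = 6.09e-12) in the authors' deposited table. The endothelial markers ROBO4 and PECAM1 given above moved with these falls, while CDH5 and VWF were near 0. Of 10 matrix proteases and inhibitors 3 rose and 3 fell (30% each way, where 5.03% and 5.46% of all genes did). MMP13, a collagenase, rose from 0.435 to 1.4 (3.21-fold, q = 5.93e-08) and ADAM9, a membrane-bound sheddase, rose from 38.1 to 59 (1.55-fold, q = 3.22e-14) in the authors' deposited table. ADAMTS6 fell from 1.01 to 0.562 (1.79-fold, q = 1.07e-05) in that table. Of 16 clade B serpins and S100 proteins 4 fell and 1 rose (25% and 6.25%), led by SERPINB2, an inhibitor of urokinase, which fell from 3.25 to 1.39 (2.33-fold, q = 6.03e-12) in the authors' deposited table.

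Of 26 measured TGF-beta, activin and BMP genes 5 fell and 1 rose (19.2% and 3.85%, where 5.46% and 5.03% of all genes did). INHBA, the subunit of activin A, fell from 58 to 24.3 (2.39-fold, q listed as 0) and TGFBI, a matrix protein that TGF-beta induces, fell from 3.67 to 1.99 (1.85-fold, q = 5.28e-08) in the authors' deposited table. SMAD3, a transducer of TGF-beta, fell 1.21-fold (q = 0.00868) in the authors' deposited table, and the ligand gene TGFB2 was 1.17-fold lower (q = 0.0575). Of 19 YAP and TEAD genes 3 rose and 3 fell (15.8% each way), with a median log2 fold of 0.007. TGM2, a transglutaminase, fell from 143 to 69.6 (2.06-fold, q listed as 0), and WWTR1, a partner of YAP, rose from 24 to 32.2 (1.34-fold, q = 3.66e-06) in the authors' deposited table. Mesenchymal genes, 14 in number, included 4 that fell and 1 that rose (28.6% and 7.14%). The transcription factor gene SNAI2 fell from 19.7 to 11.7 (1.68-fold, q listed as 0) and the fibronectin gene FN1 fell from 101 to 67.2 (1.5-fold, q = 1.18e-12), while the vimentin gene VIM rose 1.21-fold (q = 0.00676) in the authors' deposited table. The laminin subunit genes LAMB3 and LAMA3 fell 1.58-fold (q listed as 0) and 1.28-fold (q = 0.000164) in the authors' deposited table. Of the 21 genes in the laminin and integrin list 5 fell and 2 rose (23.8% and 9.52%), and ITGB4, a subunit of a laminin receptor, rose from 7.89 to 14.3 (1.82-fold, q listed as 0) in the authors' deposited table.

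Epithelial junction and keratin genes rose more often than they fell. Of 19 measured, 7 rose and 2 fell (36.8% and 10.5%, where 5.03% and 5.46% of all genes did), with a median log2 fold of 0.20. In the authors' deposited table OCLN, a tight junction protein, rose 1.57-fold (q = 0.00267), CLDN1 1.41-fold (q = 0.0276), KRT80 1.37-fold (q = 2.33e-05), KRT8 1.33-fold (q = 7.4e-06) and KRT18 1.28-fold (q = 0.000135). KRT81, the most abundant keratin of the list, fell from 1472 to 1015 (1.45-fold, q = 6.81e-11), and KRT7 fell 1.23-fold (q = 0.00371) in the authors' deposited table. KRT86, its neighbour, is not in the list and was also called lower. KRT81 and KRT86 are near-identical, and no source used here says how reads were split between them. The levels of the list summed to 2120 without and 1710 with doxycycline. Of the 14 measured members of the prostate list 4 rose and 2 fell (28.6% and 14.3%), with a median log2 fold of -0.033. FOXA1, a pioneer factor of the prostate, rose from 12.1 to 23.6 (1.96-fold, q listed as 0) and HOXB13, a prostate homeobox gene, rose from 50.04 to 76.2 (1.52-fold, q = 4.36e-13) in the authors' deposited table. FOXA2, a factor of neuroendocrine prostate cancer, fell from 31 to 22.7 (1.36-fold, q = 2.41e-06) in the authors' deposited table.

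In the Wnt list 5 of 20 measured genes rose and 2 fell (25% and 10%, where 5.03% and 5.46% of all genes did). DKK1, a secreted Wnt antagonist, rose from 424 to 666 (1.57-fold, q listed as 0) in the authors' deposited table and was among the 10 called genes of highest level. FZD8, a Wnt receptor, fell from 85.1 to 42.2 (2.02-fold, q listed as 0), and the ligand genes WNT7A and WNT7B moved apart, 1.4-fold lower (q = 4.73e-05) and 1.36-fold higher (q = 0.000189), in the authors' deposited table. Of 14 ephrins and Eph receptors 4 rose and 1 fell (28.6% and 7.14%). EPHA7 rose from 2.31 to 4.29 (1.85-fold, q listed as 0) and EPHB2 fell from 3.17 to 2.39 (1.33-fold, q = 0.000177) in the authors' deposited table.

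Genes of glycolysis and the response to low oxygen rose in part, by small steps. Of 37 measured, 12 were called higher and 1 lower (32.4% and 2.7%, where 5.03% and 5.46% of all genes were), with a median log2 fold of 0.18. SLC2A1, the glucose transporter GLUT1, rose from 18.6 to 26.7 (1.43-fold, q = 1.2e-08) and NDRG1, which low oxygen induces, rose from 42 to 59.7 (1.42-fold, q = 4.13e-09) in the authors' deposited table. ALDOC rose 1.37-fold (q = 0.00706) and the collagen hydroxylase gene P4HA1 1.35-fold (q = 5.59e-07) in the authors' deposited table. The abundant glycolytic transcripts were also called higher: GAPDH rose from 1678 to 2043 (1.22-fold, q = 0.0040), ALDOA rose from 373 to 456 (1.22-fold, q = 0.00363) and PKM rose from 701 to 826 (1.18-fold, q = 0.0279) in the authors' deposited table. LDHA, at a level of 1076, was 1.14-fold higher (q = 0.114) and HIF1A, the oxygen-regulated factor itself, 1.06-fold higher (q = 0.786) in the authors' deposited table. The repressor gene BHLHE40 was the member that fell, from 44.5 to 30.5 (1.46-fold, q = 3.65e-10) in the authors' deposited table.

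Of 25 measured targets of NRF2, the factor that answers oxidative stress, 7 rose and 1 fell (28% and 4%, where 5.03% and 5.46% of all genes did), with a median log2 fold of 0.10. The authors' deposited table gives rises of 1.38-fold (q = 5.97e-07) for EPHX1, 1.33-fold (q = 3.82e-05) for ME1 and 1.32-fold (q = 0.000325) for the cystine transporter gene SLC7A11. NQO1, a common reporter of NRF2 activity, was 1.13-fold higher (q = 0.232), and AKR1C1 fell from 1.13 to 0.721 (1.57-fold, q = 0.00123) in the authors' deposited table. Of 8 metallothioneins and zinc transporters 2 fell (25%) and none rose. MT2A fell from 567 to 295 (1.92-fold, q listed as 0) and MT1X fell from 24.6 to 15.3 (1.61-fold, q = 1.25e-05) in the authors' deposited table.

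Interferon-stimulated genes rose in part, opposite to the chemokines. Of 32 measured, 9 were called higher and 1 lower (28.1% and 3.12%, where 5.03% and 5.46% of all genes were), with a median log2 fold of 0.18. OASL, a relative of the RNA-sensing OAS enzymes, rose from 0.517 to 1.24 (2.4-fold, q = 1.58e-05), and SAMD9L, an antiviral and growth-restricting protein, rose from 1.29 to 2.74 (2.13-fold, q = 9.31e-13) in the authors' deposited table. IFI44 rose from 2.29 to 3.89 (1.7-fold, q = 0.000376), the RNA helicase gene DDX60 rose from 1.55 to 2.54 (1.63-fold, q = 1.8e-08) and IFIT2, which binds foreign RNA, rose from 4.43 to 6.86 (1.55-fold, q = 5.91e-09) in the authors' deposited table. ISG15 was 1.21-fold higher (q = 0.238), IRF7 1.12-fold higher (q = 0.788) and STAT2 1.04-fold lower (q = 1.00), and ISG20, an RNA exonuclease, fell from 7.32 to 5.16 (1.42-fold, q = 9.64e-05) in the authors' deposited table. The list had 13 members called higher and 1 lower in H6-N, 6 higher and 6 lower in I4-B, and 8 higher and 5 lower in I4-N. Over all genes the shares called higher and lower were 9.83% and 10.6% in H6-N, 10.1% and 9.09% in I4-B, and 10.4% and 12.5% in I4-N. In I4-B the authors' deposited table lists IFI44 as 1.03-fold lower (q = 1.00), DDX60 as 1.09-fold higher (q = 0.643) and IFI6 as 1.06-fold higher (q = 1.00). The difference between the clones was not tested.

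The promoters of 3 of these genes, from 120 to 41 bases before the RefSeq start, are shown because matches to the interferon response element, which complexes of STAT2 and IRF factors are known to bind, can be read in them. Capitals mark each match to GAAANNGAA on either strand, and in IFIT1 it lies on the opposite strand, so its complement is capitalised. The windows are chr1:27672233-27672312 (IFI6, minus strand), chr10:89392503-89392582 (IFIT1, plus strand) and chr4:168318793-168318872 (DDX60, minus strand) on GRCh38.p14.
IFI6: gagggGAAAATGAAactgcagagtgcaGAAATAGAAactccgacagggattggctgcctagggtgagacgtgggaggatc
IFIT1: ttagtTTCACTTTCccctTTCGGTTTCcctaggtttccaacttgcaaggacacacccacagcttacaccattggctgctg
DDX60: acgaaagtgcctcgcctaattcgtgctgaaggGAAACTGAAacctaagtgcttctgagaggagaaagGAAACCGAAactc
The matches begin at -115 and -93 in IFI6, -115 and -102 in IFIT1 and -88 and -53 in DDX60. Over the whole windows, 8.29% of all promoters and 6.11% of those of genes measured here hold a match. Of the 8 promoters found for the 10 genes raised at least 2-fold, 0 hold one. Of the 29 found for the 43 genes lowered at least 2-fold, 5 do: those of CXCL2, CXCL3, IL6, NFKBIZ and BCL2A1. Both sets are small, only 67.4% of the 43 genes had a promoter, and no difference between the sets was tested. The 3 shown were picked because they hold a match, and a match describes the letters only. A promoter was found for 78.3% of the genes called higher, fewer than 80%, so a share over that set is not given. IFI6 rose from 6.9 to 10.4 (1.51-fold, q = 0.00395) and IFIT1 rose from 1.91 to 2.73 (1.42-fold, q = 0.000447) in the authors' deposited table.

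In the list of MHC class I presentation 2 of 15 genes fell and none rose (13.3% lower, where 5.46% of all genes were). They were the peptide transporter genes TAP1, lower by 1.26-fold (q = 0.0107), and TAP2, by 1.2-fold (q = 0.027), while B2M was 1.16-fold higher (q = 0.0607) in the authors' deposited table. Of 10 complement genes 4 rose and 1 fell (40% and 10%, where 5.03% and 5.46% of all genes did). The central component gene C3 fell from 1.67 to 0.871 (1.92-fold, q = 6.61e-08), and C5 rose from 2.08 to 3.79 (1.83-fold, q = 1.54e-08) in the authors' deposited table. CD55, a membrane inhibitor of complement, rose from 13.8 to 23.1 (1.67-fold, q listed as 0) in the authors' deposited table.

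Among stress responses, 5.03% being the share of all genes called higher and 5.46% lower, 4 of 23 measured genes of the unfolded protein response rose and 1 fell (17.4% and 4.35%). The transcription factor gene CREB3L1 rose from 3.7 to 6.83 (1.85-fold, q listed as 0), the chaperone gene HSPA5 rose from 180.2 to 234 (1.3-fold, q = 3.13e-05) and the sensor gene ERN1 fell from 5.19 to 3.55 (1.46-fold, q = 1.28e-08) in the authors' deposited table. XBP1, whose mRNA that sensor splices, was 1.02-fold higher (q = 1.00) there. Of 36 genes in the integrated stress response list 5 rose and 1 fell (13.9% and 2.78%). GDF15, a secreted stress hormone, rose from 2.74 to 7.27 (2.65-fold, q listed as 0), while ATF4 was 1.08-fold lower (q = 0.673) and DDIT3 1.02-fold lower (q = 1.00) in the authors' deposited table. The authors' deposited table lists GDF15 as 2.46-fold higher (q listed as 0) in H6-N, 1.04-fold higher (q = 1.00) in I4-B and 1.31-fold higher (q = 0.00566) in I4-N. Of 21 heat shock genes 1, the cochaperone gene BAG3, was called (1.19-fold lower, q = 0.0271), which is 4.76% of the list. Of 32 cholesterol and fatty acid genes 2 were called, both higher (6.25%). TM7SF2, a sterol reductase, rose from 4.25 to 10.01 (2.36-fold, q listed as 0) in the authors' deposited table. PC-3 cells are known to lack functional p53, and of 22 p53 target genes 1 rose and 2 fell (4.55% and 9.09%). BCL2A1, a survival gene that NF-kB induces, fell from 22.6 to 9.14 (2.47-fold, q listed as 0) in the authors' deposited table and was the only called member among 13 of the BCL2 family.

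Genes for making ribosomes and for copying DNA fell in part and by small amounts, and none was called higher. Of 45 measured ribosome biogenesis genes 14 fell (31.1%, where 5.46% of all genes did), with a median log2 fold of -0.17. Besides MYC, falls were those of POLR1A, the largest polypeptide of RNA polymerase I, by 1.33-fold (q = 8.4e-06), of ODC1, which starts polyamine synthesis, by 1.29-fold (q = 5.49e-05), of RRS1 by 1.25-fold (q = 0.00451) and of UTP20 by 1.23-fold (q = 0.00335) in the authors' deposited table. NPM1 and NCL, abundant nucleolar proteins, were 1.05-fold lower (q = 0.946) and 1.1-fold lower (q = 0.456) in the authors' deposited table. The list had 26 members called lower in H6-N, 29 in I4-B and 34 in I4-N, where 10.6%, 9.09% and 12.5% of all genes were. Of 51 G1/S and replication genes 8 fell (15.7%), with a median log2 fold of -0.14. UHRF1, which maintains DNA methylation, fell 1.31-fold (q = 3.39e-05) and the replication initiation gene MCM10 1.31-fold (q = 0.000489) in the authors' deposited table. ORC1 fell 1.28-fold (q = 0.00245), POLD1 1.28-fold (q = 0.000952) and PRIM1 1.27-fold (q = 0.00548) in that table. PCNA, the sliding clamp, was 1.07-fold lower (q = 0.753) there. Of 53 DNA repair genes 6 fell (11.3%), with a median of -0.10. UNG, which removes uracil from DNA, fell 1.29-fold (q = 0.000195), and the repair kinase genes ATM and PRKDC 1.23-fold (q = 0.00637) and 1.19-fold (q = 0.0162) in the authors' deposited table.

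Genes of G2 and mitosis had a median log2 fold of 0.067. Of 51 measured, none was called lower and 3 were called higher (0% and 5.88%, where 5.46% and 5.03% of all genes were). They were SGO2, which protects centromeric cohesion, 1.33-fold (q = 5.42e-05), CKS2 1.27-fold (q = 0.00145) and DLGAP5 1.23-fold (q = 0.0024) in the authors' deposited table. MKI67, the usual marker of cycling cells, was 1.08-fold lower (q = 0.668) and CCNB1 1.07-fold higher (q = 0.75) in that table. Among 19 CDK inhibitors and cyclins 4 rose (21.1%) and none fell. CDKN2C, an inhibitor of cyclin D kinases, rose from 11.2 to 16.8 (1.5-fold, q = 1.26e-09), CCNG2 rose 1.48-fold (q = 0.00104), CDKN1B, which encodes the inhibitor p27, 1.36-fold (q = 0.00156) and CCNG1 1.28-fold (q = 0.000753) in the authors' deposited table.

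Few ribosomal protein and respiratory chain genes were called. Of 85 cytosolic ribosomal protein genes 1, RPS27L, was called (1.26-fold higher, q = 0.0079 in the authors' deposited table), with a median log2 fold of 0.033. In H6-N the same list had 26 members called higher, where 9.83% of all genes were, and a median of 0.13. Of 75 nuclear-encoded subunits of oxidative phosphorylation 1, ATP5F1D, was called (1.21-fold higher, q = 0.0336 in the authors' deposited table), against 20 higher and 2 lower in H6-N. There 9.83% of all genes were called higher and 10.6% lower. Of 13 mitochondrially encoded subunits MT-ND3 alone was called and rose from 694 to 926 (1.33-fold, q = 3.18e-06) in the authors' deposited table, and the median of the list was 0.17. In H6-N that median was -0.55 with 5 members called lower, and in I4-N 12 were called lower, while I4-B had 2 called higher. The matching shares of all genes were 10.6% lower in H6-N, 12.5% lower in I4-N and 10.1% higher in I4-B. Libraries of experiments N and B were made with different kits, per the labels' protocols, and the part of that in these differences was not tested. Of 77 mitochondrial ribosomal proteins 1 rose and 2 fell (1.3% and 2.6%, where 5.03% and 5.46% of all genes did).

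**Figure D3:**
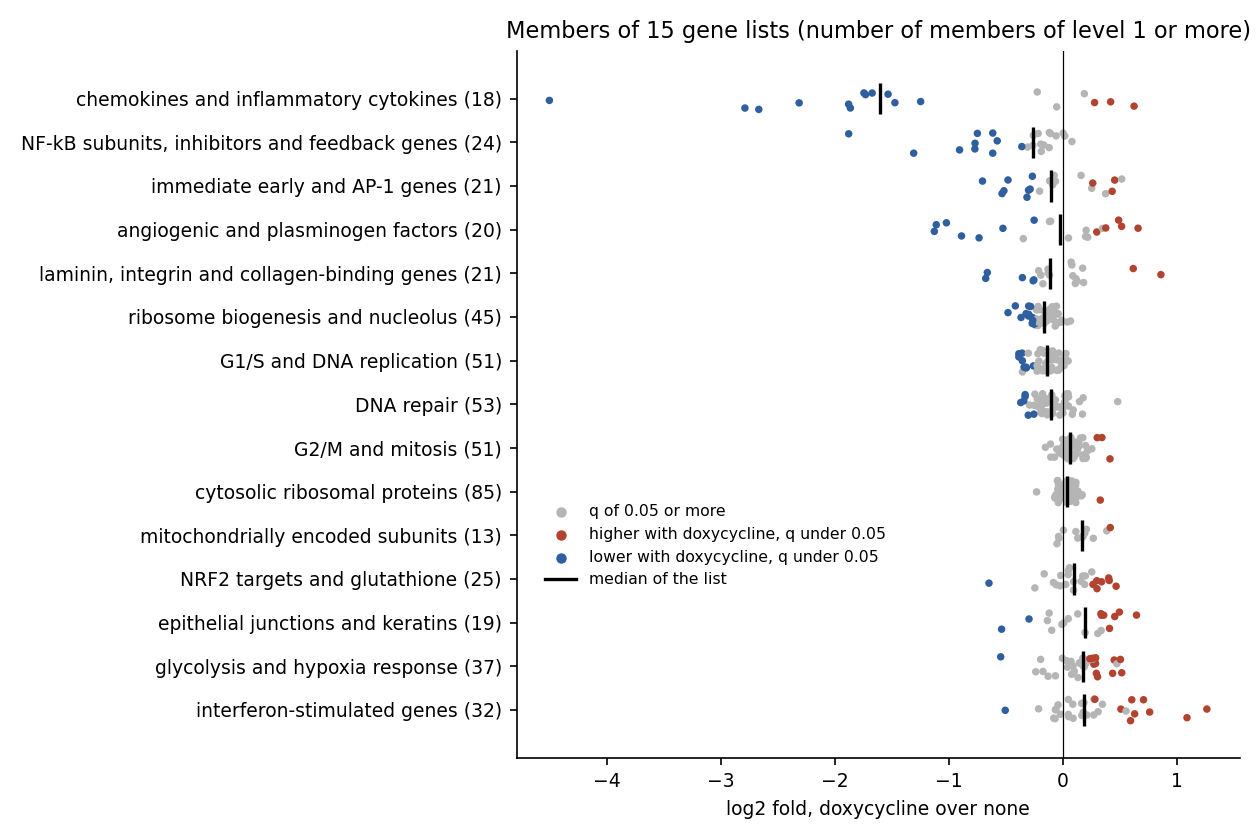
Log2 folds of the measured members of 15 gene lists (horizontal axis), 1 point per gene, coloured where q was under 0.05, with a black bar at the median of each list. The chemokine and cytokine list reaches from the 22.7-fold fall of CSF3 to the 1.54-fold rise of CXCL16 and has its median at -1.60, while the medians of the other lists shown lie between -0.26 and 0.20.

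A few strong changes lay outside these lists. TNS4, a focal adhesion protein, fell from 16.6 to 4.54 (3.65-fold, q listed as 0), and POU2F2, a transcription factor known from B cells, fell from 4.87 to 1.55 (3.14-fold, q listed as 0) in the authors' deposited table. That table has TNS4 3.4-fold lower in H6-N and 1.99-fold lower in I4-B. IGFBP4, which binds insulin-like growth factors, fell from 674 to 407 (1.66-fold, q listed as 0) in the authors' deposited table. HPGD, which inactivates the prostaglandins that PTGS2 starts, rose from 0.852 to 2.26 (2.66-fold, q listed as 0) in the authors' deposited table. The authors' deposited table also shows rises of ZNF608 from 0.439 to 1.19 (2.71-fold, q = 3.53e-13), FAM131B from 0.747 to 1.55 (2.07-fold, q = 8.48e-09), ADAM21 from 1.25 to 2.7 (2.16-fold, q = 3.63e-08) and PRR15 from 0.717 to 1.42 (1.98-fold, q = 0.00465). URGCP-MRPS24, a read-through gene that shares exons with MRPS24, is listed as 22.8-fold higher (q = 0.000632) at a level of 1.5 in the authors' deposited table. It rests on about 1.15 reads per untreated and 28.7 per treated well, it is 3.72-fold lower (q = 0.0237) in I4-B, and MRPS24 itself was 1.08-fold lower (q = 0.678), so this value is uncertain. Of 33 lysosome and autophagy genes 2 rose and 1, the autophagy receptor gene SQSTM1, fell, by 1.2-fold (q = 0.0131) in the authors' deposited table (6.06% and 3.03%, where 5.03% and 5.46% of all genes did).

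Set beside the other comparisons, with which it shares no library, this one had the fewest genes called. Of about as many genes, 20.4% were called in H6-N (9.83% higher, 10.6% lower), 19.2% in I4-B (10.1% higher, 9.09% lower) and 22.9% in I4-N (10.4% higher, 12.5% lower), against 10.5% here. Of the 1123 genes called here, 841 were called with the same sign in H6-N, which is 74.9% of the list here and 38.5% of the list there. With I4-B 715 were shared (63.7% and 34.8%) and with I4-N 686 (61.1% and 28%). Whether called or not, 1095 of the 1123 genes had the same direction in H6-N, 1042 in I4-B and 1005 in I4-N. The share of all measured genes with the same direction was not calculated, so these counts, and those of direction below, have no background beside them. The median absolute log2 fold of the 1123 genes was 0.39 here and 0.34 in H6-N.

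**Figure D4:**
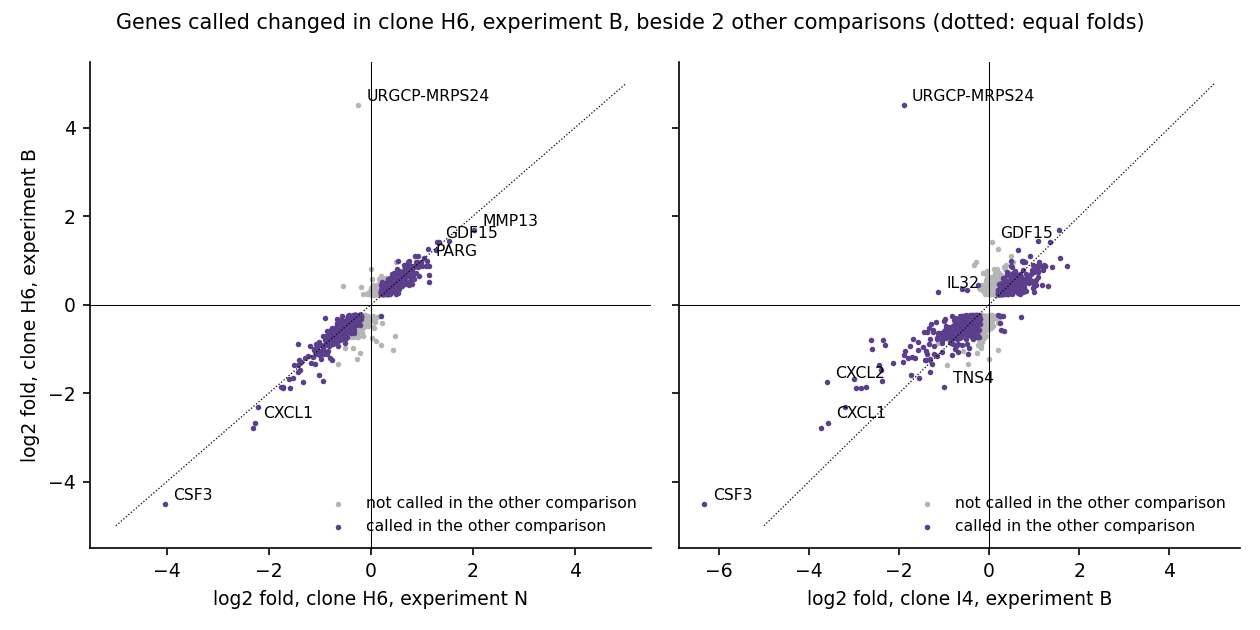
Log2 folds of the 1123 genes called in clone H6 in experiment B (vertical axes) against their folds in clone H6 in experiment N (left) and clone I4 in experiment B (right); purple points had q under 0.05 there too, and the dotted line marks equal folds. In the same clone 1095 points have the same direction on both axes, while in clone I4 CSF3, CXCL1 and CXCL2 lie to the left of the line and IL32 and URGCP-MRPS24 have opposite signs.

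Genes called in all of the other comparisons and not here mostly pointed the same way. Of 771 genes called with 1 sign in all of the other 3 comparisons, 535 were called here with that sign and 236 were not. Of the 236, 234 had the same direction here and 95 had a q-value under 0.20, with a median absolute log2 fold of 0.19 here and 0.27 in H6-N. An exception was MSMP, an abundant secreted microseminoprotein gene, 1.01-fold lower (q = 1.00) at a level of 276 here and 1.35-fold higher (q = 0.0133) in H6-N of the authors' deposited table. SHISA3 was 1.44-fold higher (q = 0.103) here and 1.97-fold higher in I4-B, and DDIT4, a stress-induced inhibitor of mTORC1, 1.09-fold lower (q = 0.743) here and 2.02-fold lower in I4-B of the authors' deposited table. NR3C2, the mineralocorticoid receptor gene, was 1.17-fold higher (q = 0.336) here and 1.89-fold higher in I4-B of the authors' deposited table.

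Called here and in none of the other 3 comparisons were 129 genes, 62 higher and 67 lower, and 115 of them had the same direction in H6-N. The largest fall among them was that of SCG5, a secretory granule chaperone, from 1.76 to 0.697 (2.53-fold, q = 0.000602) in the authors' deposited table, which lists it as 1.56-fold lower (q = 0.116) in H6-N. IL18BP, the decoy receptor of interleukin-18, fell from 1.22 to 0.726 (1.68-fold, q = 0.000832), and NCR3LG1, a ligand of a natural killer cell receptor, fell from 1.07 to 0.651 (1.64-fold, q = 0.000526) in the authors' deposited table. Among the rises were RHBDL2, a rhomboid protease, 1.52-fold (q = 0.0142), YPEL1 1.49-fold (q = 0.0255) and IFI6 in the authors' deposited table. CNTNAP3C, U2AF1L5 and SULT1A3 are near-identical to other genes and POC1B-GALNT4 is a read-through gene, so their values are uncertain: 1.75-fold higher, 1.63-fold lower, 1.58-fold lower and 1.77-fold lower in this order in the authors' deposited table. These genes are singled out by a threshold, and a difference from the other comparisons was not tested.

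Few genes took opposite signs. Only TOMM7, a subunit of the mitochondrial import pore, was called in both H6 comparisons with opposite signs, 1.19-fold lower (q = 0.0362) here and 1.15-fold higher (q = 0.0432) in H6-N of the authors' deposited table. With I4-B there were 13 such genes and with I4-N 18. IL7R, the interleukin-7 receptor gene, was 1.28-fold higher (q = 0.000351) here and 1.52-fold lower in I4-B, and INAVA 1.27-fold higher (q = 0.0011) here and 1.41-fold lower in I4-B of the authors' deposited table. FABP4, a fatty acid carrier, was 1.34-fold lower (q = 0.00326) here and 1.47-fold higher (q = 0.00115) in I4-N of the authors' deposited table. Out of 10705 genes, 160 were called with 1 sign in both H6 comparisons and in neither I4 comparison. A threshold singles them out, and a difference between the clones was not tested. FN1 is an example, 1.5-fold lower here, 1.47-fold lower in H6-N, 1.11-fold lower (q = 0.161) in I4-B and 1.16-fold lower (q = 0.195) in I4-N of the authors' deposited table. SLC2A1 is another, 1.43-fold higher here, 1.44-fold higher in H6-N, 1.08-fold higher (q = 0.482) in I4-B and 1.11-fold higher (q = 0.128) in I4-N of the authors' deposited table. Some came near the threshold in I4, such as CHCHD4, 1.16-fold lower (q = 0.0629) in I4-B and 1.15-fold lower (q = 0.0583) in I4-N of that table.

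How small a fold could be called depended on the level. At levels from 1 to 2, with a median of about 182 reads per well, 9.23% of genes were called and their median fold was 1.49. At levels of 50 or more, with about 8850 reads, 12% were called with a median fold of 1.25. Of genes with a fold of 1.2 to 1.3 in either direction, 9.8% were called at levels from 1 to 2, 31.8% from 2 to 5, 62.1% from 5 to 10, 84.5% from 10 to 20, 94.2% from 20 to 50 and 97.8% above that. In I4-B, of similar depth with 3 untreated wells, the shares at levels from 1 to 2, 2 to 5 and 5 to 10 were 27.7%, 70% and 93.8%. Over all levels 420 of 821 such folds were called here (51.2%), against 756 of 1019 in H6-N (74.2%), 734 of 942 in I4-B (77.9%) and 813 of 1128 in I4-N (72.1%). The median absolute log2 fold of all genes was 0.11 here and 0.12, 0.11 and 0.13 in the other comparisons in that order. The number of wells and the depth differ between the comparisons together with clone and experiment, and their part in the lower count was not tested. At levels under 5, then, most folds of this size were not called.

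**Figure D5:**
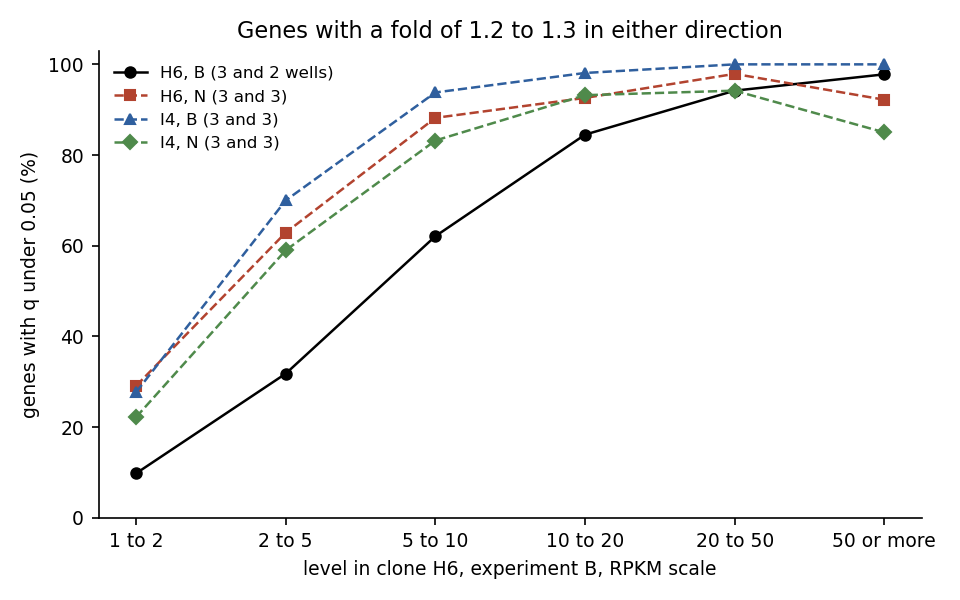
Share of genes with a fold of 1.2 to 1.3 in either direction whose q was under 0.05 (vertical axis, %), by the level of the gene in clone H6 in experiment B (horizontal axis, RPKM scale), for the 4 comparisons with their numbers of treated and untreated wells. The line of clone H6 in experiment B starts at 9.8%, lies below the others up to a level of 20 and ends at 97.8%, among them.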

How the data were processed

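The series holds 23 poly(A) libraries of PC-3 clones, each from 1 well, and 5 of them form this comparison. The build was hg38, as the submitters' processing notes have it. No source used here names the aligner, the counting program, its use of strand, the annotation or the test. The authors deposited 1 table of 21463 rows with, per comparison, the higher group mean, a signed fold change and a q-value. The mean carries no unit in the deposited header and was handled as a score on the RPKM scale, which was inferred from the worth of 1 read in genes of low level. The q-value is the authors' own adjusted p-value, listed as 0 for 71 genes here. The authors' folds hold a small added count, since 457 genes of very low level share a fold of 3.56 and 252 a fold of 5.27, so a lower mean of about 1 read is approximate.

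Genes of level at least 1 were described, and a q-value under 0.05 with the sign of the fold was taken as a call. No test was run, as no value per library was analysed here, and the count model planned for such values could not be used. The depth method was tried on simulated counts drawn at depths close to those found here. The simulation used the same exon lengths and scale, so it cannot check either of them. Read numbers per well are estimates from the level, the merged exon length of GENCODE 29 (99.5% of rows matched by symbol) and the depth. For 27 rows the name reads as a date, as a spreadsheet writes it, and these are counted but not named. Promoters come from the RefSeq table, which matched 80.4% of the genes.

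Genes were named by a rule: PARG, the 12 largest rises and falls, up to 5 called members per list by fold with members that define it, the 8 largest in each direction called here alone or in the other 3 comparisons and not here, up to 8 of opposite sign, and the 10 called genes of highest level. Not every gene under the rule is printed, and a few items are not reported here. Further list members, the neighbours on chromosome 4, KRT86, MRPS24, TOMM7, the genes of the closing section and the examples called in clone H6 alone were picked after their values had been seen. The members and the 46 lists were chosen with earlier results of these data known. Alternatives changed the q-value threshold, the minimum fold, the minimum level and the centring. Python 3.11.15, pandas 2.3.3, numpy 2.4.6 and matplotlib 3.10.9 were used.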

Additional observations from a re-analysis of the deposited data

Results flagged for a closer look

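Below the level of 1 that limits the report, 80 genes of the 5214 with a fold had a q-value under 0.05 in the authors' deposited table, 40 higher and 40 lower with doxycycline. They are given here because they lie outside the genes described above. UNC5C, a netrin receptor, was 7.5-fold higher (q = 0.00145) at a level of 0.0842 and CRISP3, a secreted cysteine-rich protein, 6.58-fold higher (q = 0.0156) at 0.288, per the authors' deposited table. The same table has SPARC, a matricellular protein, as 2.71-fold higher (q = 6.54e-06) at 0.96, BMP2, a ligand of the BMP pathway, as 3.23-fold lower (q = 0.0136) at 0.302 and the hemidesmosome collagen gene COL17A1 as 2.79-fold lower (q = 0.00594) at 0.211. Such levels rest on few reads, and the folds are imprecise.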

How the results depend on the processing

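The directions of all called genes are those of the deposited folds. Centring the folds on the median of all genes changed no count. It could hardly do so, since it leaves the q-values as they are and that median log2 fold was 0.0084. At a q-value under 0.01 the called genes numbered 729, of which 334 were higher, and the 395 lower and the 88 called here alone stayed within 1.5 times the main counts. A fold of at least 1.5 left 227 genes, 85 higher and 142 lower, with 17 called here alone, and a fold of at least 2 left 53, 10, 43 and 4. A level of at least 5 left 68 genes called here alone, and 65 of the 129 had a q-value of at least 0.20 in all the other comparisons. A q-value under 0.10 (1434 genes, 190 alone) and no minimum level (1203 genes, 148 alone) stayed within 1.5 times. Of 92 counts of list members 68 were 1 or more, and the others, at 0, could not move under a stricter setting. With a fold of at least 1.5, 52 moved by more than that, and with a fold of at least 2, 66. A level of at least 5 moved 18, a q-value under 0.01 19, one under 0.10 11 and no minimum level 2. By construction, all but the last 2 of these settings let fewer genes in and those 2 let more in.

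No paired analysis was possible because the table holds no value per library. For the same reason leaving out a replicate, a fit with the replicate number as a block, and the comparison of edgeR with DESeq2 size factors were not run, so the part of either untreated well in any value is not known. Of folds of 1.2 to 1.3 at levels from 2 to 5, 31.8% were called at 19.2 to 26.5 M reads per well, and the part of depth in this was not tested.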

Other observations

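Besides the CXCL row, 15 runs of at least 3 consecutive measured genes were called in 1 direction, and no run was tested. How many runs would arise by chance, with 5.03% of all genes called higher and 5.46% lower, was not calculated. Some runs hold near-identical genes, such as KRT81 and KRT86, and the longest spans 3678 kb. The posterior HOXA genes HOXA9, HOXA10, HOXA11 and HOXA13 form such a run on chromosome 7, from 27162435 to 27200106 (37.67 kb), and all 4 rose. HOXA13 rose from 7.33 to 12.7 (1.73-fold, q listed as 0), HOXA10 rose from 6.5 to 9.87 (1.52-fold, q = 1.49e-08), HOXA9 rose from 16.5 to 21.9 (1.33-fold, q = 0.000106) and HOXA11 rose from 11.8 to 14.9 (1.26-fold, q = 0.00705), per the authors' deposited table. In clone I4 in experiment B the table lists HOXA13 as 1.94-fold higher (q listed as 0), HOXA10 as 1.44-fold higher (q = 2.67e-08), HOXA9 as 1.2-fold higher (q = 0.00974) and HOXA11 as 1.05-fold higher (q = 0.866).

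On chromosome 2, DAW1, PID1 and DNER fell in a row that spans 1844 kb. The authors' deposited table gives DNER, a Notch ligand, as 2.53-fold lower (q = 1.87e-06) at a level of 1.03, PID1 as 2.31-fold lower (q = 3.91e-12) at 3.02 and DAW1 as 2.19-fold lower (q = 1.87e-05) at 1.75. HES1, a target of Notch, fell from 12.1 to 7.08 (1.71-fold, q = 5.43e-07) and was 1.14-fold lower (q = 0.391) in clone I4 in experiment B, per the authors' deposited table. PI3, which encodes the elastase inhibitor elafin, fell from 349 to 169.6 (2.06-fold, q listed as 0), LCN2, the antibacterial lipocalin, fell from 5.46 to 3.12 (1.75-fold, q = 0.00981) and IGFBP3, a carrier of insulin-like growth factors, fell from 133 to 74.7 (1.79-fold, q listed as 0), per the authors' deposited table. Rises of similar size in the authors' deposited table were those of AGR2, a disulfide isomerase of secretory epithelia, from 13.7 to 25.1 (1.84-fold, q listed as 0), and LXN, a carboxypeptidase inhibitor, from 15.7 to 29 (1.85-fold, q = 1.27e-10).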
